A study of Mus musculus with 9 samples.

Results

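The antigen receptor loci of the mouse were examined as 5 regions of the genome in an array comparison of mammary tumour DNA with pooled tail DNA. The regions were the immunoglobulin heavy chain locus Igh (chromosome 12, 114400001 to 117300000), the kappa light chain locus Igk (chromosome 6, 67400001 to 70800000), the T cell receptor beta locus Tcrb (chromosome 6, 40800001 to 41600000), the shared alpha and delta locus Tcra/Tcrd (chromosome 14, 52900001 to 54900000) and the lambda light chain locus Igl (chromosome 16, 18900001 to 19300000). Members were the probes whose printed position lay in these windows, 2148 of 963261 probes on the array. Igh held 648 of them, Igk 535, Tcra/Tcrd 512, Tcrb 338 and Igl 115. All positions are given as the files print them; the files state no build and pair no probe with a gene, so segments inside a locus are not named.

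All tumours came from mice of mixed background with floxed Rb and p53 alleles, the targets of Cre recombinase. The labels give 1 nulliparous and 1 parous MMTV-Cre tumour, 5 MMTV-Cre transplants and 2 Ad-Cre transplants, whose Cre the labels name as Ad-CMVcre. In MMTV-Cre mice a mammary tumour virus promoter drives Cre. Ad-CMVcre is Cre delivered by an adenovirus under a viral promoter. The labels state neither the host of the transplants nor whether any of them shared a donor. Tumour DNA was labelled with Cy5 and hybridised against the Cy3-labelled pool on 1 array per tumour, and the pool came from tails of tumour-free animals of the same mixed background.

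Most of these loci are arrays of many similar variable segments followed by short joining segments and constant genes. Igl holds few variable segments, and its clusters each have their own joining and constant parts. Developing B cells cut and rejoin the immunoglobulin loci, and developing T cells the T cell receptor loci, and the DNA between the joined segments is deleted from the chromosome or inverted. Mammary cells keep the inherited arrangement, and inbred mouse strains are known to carry different numbers and kinds of variable segments. A ratio between mixed-background animals can therefore reflect inherited segments, rearrangement in blood cells within a sample, or copy number of the tumour, and these cannot be told apart from the ratio alone. Nor can the share of cells that carry a change and the number of copies per cell be told apart in bulk DNA.

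The median signal of the pool was 1071 to 1149 and that of the tumours 1070 to 1190 in arbitrary intensity units. The pool's median lay 21.8 to 32.5 times above local background, and the tumours' median 15.2 to 17.9 times. Probe noise was 0.158 to 0.182 on the log2 scale. As a check of the labels, a run of 4 probes on chromosome 11, taken as the deleted part of Trp53 because its position was known beforehand, kept 29.8% to 58.6% of the signal of its flanks in 8 tumours. The library labelled MMTV-Cre transplant 2 kept 91.9% and so goes against its label. Means and counts that changed their call without it are also given without it. Arrays were scanned on 3 days. The nulliparous, parous and Ad-Cre tumours shared the third day, and the MMTV-Cre transplants were scanned on the other 2 days.

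The loci stood out first in the pool. A probe was called scarce when its pool signal, as the median over 9 arrays, was under 25% of the autosomal median. Scarce probes made up 14.2% of the members (305 of 2148), against 1.87% of all autosomal probes. The share was 21.6% in Igh, 20.7% in Tcrb, 12% in Igk, 5.66% in Tcra/Tcrd and 1.74% in Igl. In all, 62 member probes were not well above background in the pool on any array, 33 in Tcrb, 27 in Igh and 2 in Tcra/Tcrd. These 62 probes give no ratio and were measured in the tumour channel alone. Conversely, 22 member probes, 19 of them in Igh, had a pool signal more than 3 times the autosomal median.

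The question set by the design was which regions were altered in common. It was addressed in windows of 100 kb by the median log2 ratio of each window against the pool and against its surroundings. The surroundings were the median of the window itself and the 50 tested windows on each side, other windows of its locus included. Of 95 windows in the loci, 77 had enough probes to be tested. Against the surroundings, 36 windows were higher (limma, Benjamini-Hochberg adjusted p under 0.05 over all windows), where 23.5% of all autosomal windows were higher, and 11 were lower, where 24.4% of all were lower. Igk held 16 of the higher windows and Igh 13. Against the pool itself 20 were higher and 5 lower, where the autosomes gave 18.6% and 14.6%, and the 5 lower windows all lay in Igh. Leaving out the library labelled MMTV-Cre transplant 2 gave counts of 35 and 10 against the surroundings and 18 and 5 against the pool. The median window of the loci lay 0.05 above its surroundings, against 0.00 for all autosomal windows.

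Normexp background correction left 12 higher windows against the surroundings and 5 against the pool, while over all autosomes the higher windows went from 5497 to 5644 and from 4333 to 4916. Leaving out scarce probes left 30 against the surroundings and 12 against the pool, where the autosomes gave 5507 and 4332. The spread between tumours was also wider in the median member window. The SD over 9 tumours of the ratio minus surroundings had a median of 0.071 in member windows and 0.037 over all windows, and 9 of the 77 windows lay above 0.295, the level that 1% of all autosomal windows exceeded. Of single member probes, 615 of 2037 tested were higher than the pool and 393 lower, which is 30.2% and 19.3%, where all probes gave 23.3% and 24.1%.

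**Figure D1:**
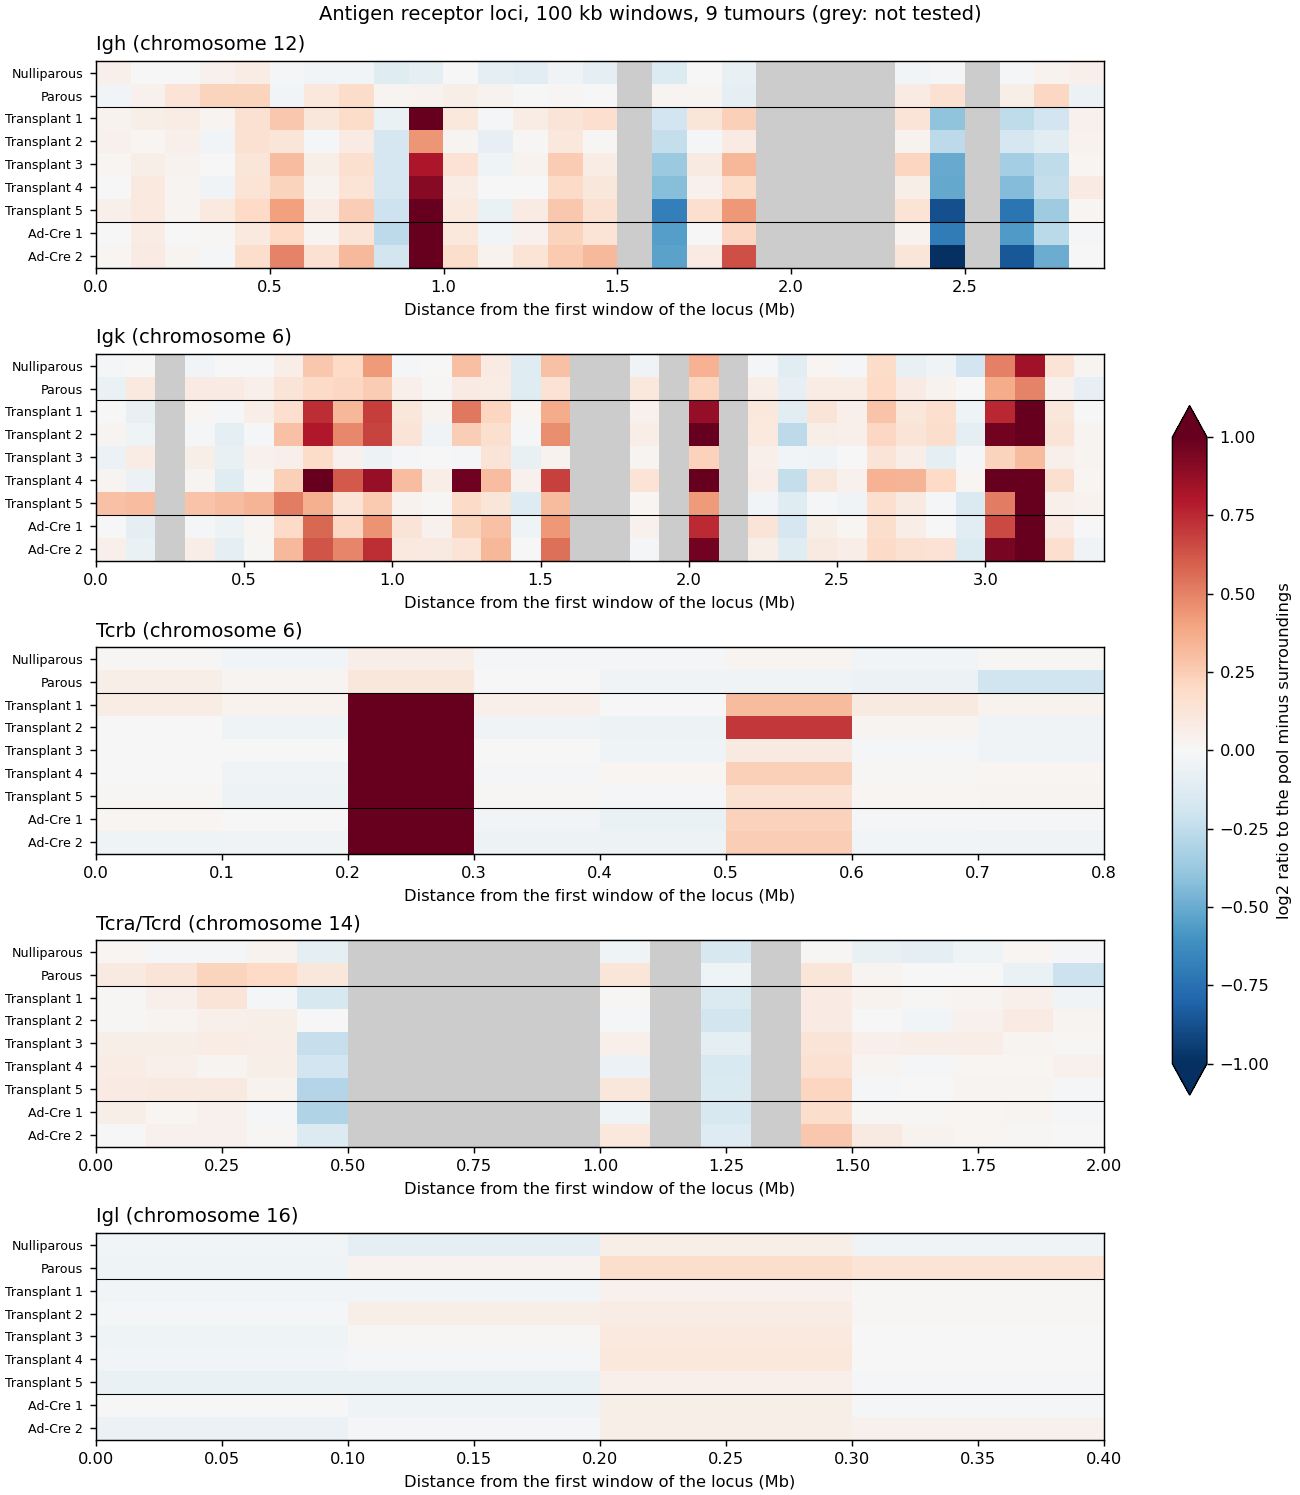
Log2 ratio to the pool minus surroundings (colour) in 100 kb windows of the 5 loci, plotted by distance in Mb from the first window of each locus, with 1 row for each of the 9 tumours and untested windows in grey. The Tcrb column near 0.25 Mb is raised in the 7 transplants and near 0 in the nulliparous and parous tumours, the Igh windows near its far end are lowered in the same 7, and the Igk columns vary from tumour to tumour.

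The block with the most scarce probes lay in Tcrb, the locus of the beta chain of the T cell receptor. It ran from 41016872 to 41114264 on chromosome 6, among the variable segments and away from the joining end. Its 59 consecutive scarce probes had a median pool signal of 1.05% of the autosomal median, and 32 of them were below background in the pool on every array. In the tumour channel the nulliparous tumour had 1.26% of its autosomal median and the parous tumour 1.59%. MMTV-Cre transplants 1, 3, 4 and 5 had 29.1%, 29.0%, 29.9% and 41.3%, and the library labelled MMTV-Cre transplant 2 had 73.4%. Ad-Cre transplants 1 and 2 had 38.0% and 54.1%. The 7 transplants thus carried clear signal where the pool and the other 2 tumours carried almost none, and the groups did not overlap.

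All 59 probes showed that separation, and all 59 were well above background in each transplant. For 37 of the block's probes, which were not well above background on either array of the other 2 tumours, the difference is a bound. On those the transplants were at least 5.78-fold to 42.8-fold brighter, with a median of at least 14.3-fold. The measured means on the log2 scale relative to the autosomal median were -1.55 in the transplants and -6.92 in the other 2, the latter below the limit of measurement. The raised runs of ratios began to the left of the block in 6 of the 7 transplants, at 41004202 in the library labelled MMTV-Cre transplant 2, at 41006245 in both Ad-Cre transplant 2 and MMTV-Cre transplant 4, and at 41013611 in MMTV-Cre transplants 1 and 5 as well as Ad-Cre transplant 1.

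Across the block the transplants differed from each other by nearly constant factors. Relative to the library labelled MMTV-Cre transplant 2, transplant 1 had a median of 36.8% (quartiles 35.6% and 38.6% over the 59 probes), transplant 3 had 37.2% and transplant 4 had 39.0%. MMTV-Cre transplant 5 had 55.6%. Ad-Cre transplant 1 had 41.6% and Ad-Cre transplant 2 had 70.9%, with quartiles of 66.9% and 75.7%. The probes within the block are neighbours on 1 array and share their DNA, so the quartiles describe evenness along the block and are no replicate error.

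**Figure D2:**
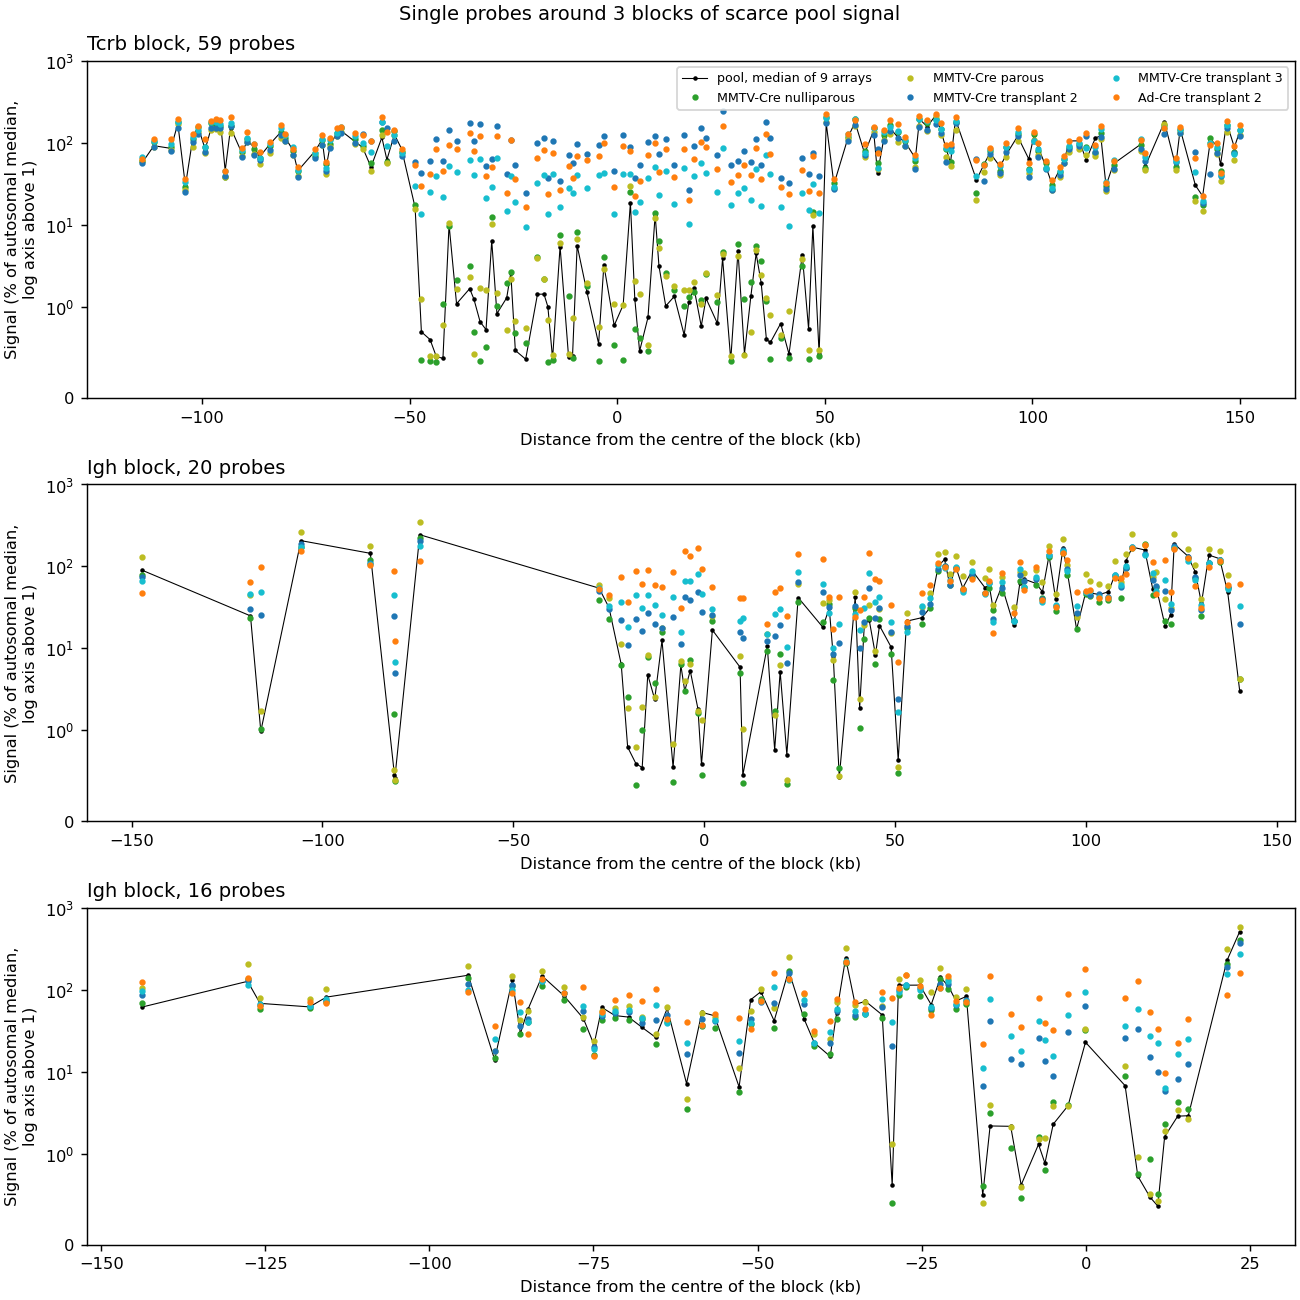
Signal of single probes in percent of the array's autosomal median (log axis above 1) against distance in kb from the centre of 3 blocks of scarce pool signal, with the pool as a black line (median of 9 arrays) and 5 of the 9 tumours as points. Inside each block the nulliparous and parous tumours follow the pool and the 3 transplants shown lie above it at most probes.

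In ratios the same block appeared in the Tcrb window starting at 41000001. The log2 ratio minus surroundings was 0.07 in the nulliparous and 0.11 in the parous tumour. It was 1.62, 1.78, 2.16 and 2.73 in MMTV-Cre transplants 1, 3, 4 and 5, and 2.30 and 2.34 in the Ad-Cre transplants, while the library labelled MMTV-Cre transplant 2 had 3.46. All 9 values were above 0, with a mean of 1.84 ± 1.13 (SD, n = 9, limma adjusted p = 0.0010), and leaving out the library labelled MMTV-Cre transplant 2 gave a mean of 1.64 (limma adjusted p = 0.0024). The ratio filter drops most of the block's dimmest probes. With them kept the mean was 3.85, and with normexp correction it was 0.26 and did not pass (limma adjusted p = 0.14).

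Comparing the 7 transplants with the 2 other tumours was chosen after these values had been seen. In that comparison 19 member windows had an unadjusted limma p under 0.05, where the autosomes gave 5.61%, and the Tcrb window was the single window called on all autosomes, 0.00428% of those tested, with a difference of 2.37 (limma adjusted p = 0.024). Leaving out the library labelled MMTV-Cre transplant 2 gave a difference of 2.20 (limma adjusted p = 9.42e-05), and 19 windows were then called on the autosomes, of which 2 lay in the loci. The call was lost when the parous tumour, MMTV-Cre transplant 3 or Ad-Cre transplant 1 was left out, with differences of 2.28, 2.45 and 2.38 (limma adjusted p = 0.19, 0.085 and 0.67), which left 0 member windows called in each case. The planned comparison of the 5 MMTV-Cre transplants with the 2 other MMTV-Cre tumours called 0 windows, in the loci and on all autosomes, with 11 member windows at an unadjusted limma p under 0.05, where the autosomes gave 3.66%. With the library labelled MMTV-Cre transplant 2 left out it called 1 member window, the Tcrb window (difference 2.09, limma adjusted p = 0.022). Ad-Cre against MMTV-Cre tumours likewise called 0 windows, with 6 member windows at an unadjusted limma p under 0.05, where the autosomes gave 2.57%.

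On the single scan day that held both models, the 2 Ad-Cre transplants exceeded the nulliparous and parous tumours at the Tcrb window by 2.43. That fit of 2 arrays against 2 used 1 common SE of 0.216 for all windows, so its calls do not carry the spread of this window. This was 1 of 5 member windows called on that day, where 0.642% of all autosomal windows were called. Here model and transplantation cannot be told apart, since the 2 Ad-Cre tumours were transplants and the other 2 were not.

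A smaller rise lay in the Tcrb window starting at 41300001, with 8 probes. It was 0.71 in the library labelled MMTV-Cre transplant 2, 0.09 to 0.31 in the other 4 MMTV-Cre transplants, 0.23 and 0.25 in the Ad-Cre transplants, and 0.03 and -0.04 in the nulliparous and parous tumours. Its mean was 0.22 ± 0.22 (SD, n = 9, limma adjusted p = 0.014). With normexp correction the mean was 0.04 and did not pass (limma adjusted p = 0.64). Its call against the pool was lost without scarce probes, at 0.09 (limma adjusted p = 0.21), and leaving out the library labelled MMTV-Cre transplant 2 lost it as well, at 0.17 (limma adjusted p = 0.055). Leaving out Ad-Cre transplant 1 or 2 also lost it, at 0.22 and 0.19 (limma adjusted p = 0.061 and 0.052). Centring on the mode did the same, at 0.19 (limma adjusted p = 0.084). As in the large block, the library labelled MMTV-Cre transplant 2 was the highest and the groups did not overlap. Over the whole of Tcrb, 65 of 70 scarce probes had all 7 transplants above the other 2 tumours in the tumour channel (92.9%), where 17.4% of the scarce probes on the autosomes did.

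Igh, which encodes the heavy chain, held several such blocks rather than 1. The longest ran from 115304961 to 115348404, with 20 probes and a median pool signal of 2.70% of the autosomal median. Tumour signal there was 3.40% in the nulliparous and 3.26% in the parous tumour. It was 32.0%, 30.6%, 34.4% and 45.7% in MMTV-Cre transplants 1, 3, 4 and 5, and 36.2% and 57.8% in the Ad-Cre transplants, while the library labelled MMTV-Cre transplant 2 had 19.3%. Again the 7 transplants lay above the other 2, but here the library labelled MMTV-Cre transplant 2 was the lowest of the 7, where at Tcrb it was the highest.

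Another Igh block, from 116265518 to 116296896, also had that library lowest of the transplants. Its 16 probes had a median pool signal of 1.89%, and the tumour signal was 1.95% and 2.01% in the nulliparous and parous tumours. MMTV-Cre transplants 1, 3, 4 and 5 had 23.6%, 26.0%, 26.4% and 36.3%, the Ad-Cre transplants 26.6% and 47.4%, and the library labelled MMTV-Cre transplant 2 had 14%. All 16 probes separated the 7 transplants from the other 2. Shorter blocks of 5 probes (114837106 to 114849408) and 9 probes (115367428 to 115383814) did so at 4 and 7 of their probes. Over Igh as a whole 109 of 140 scarce probes had this pattern (77.9%). The reverse, with all 7 transplants below, was seen at 1 of the 305 scarce member probes, in Tcra/Tcrd, where 2.9% of scarce autosomal probes showed it. Among member probes that were not scarce it was seen at 202 (10.96%), where 4.89% of such autosomal probes showed it. Tcra/Tcrd held 111 of these (23.0% of its probes that were not scarce) and Igh 84 (16.5%). These signals were not set against their surroundings, so shifts of a whole chromosome stay in them. On the ratio minus surroundings, 0 of 13 tested Tcra/Tcrd windows and 4 of 23 Igh windows had the 7 transplants wholly below. Of all autosomal windows 5.64% did.

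**Figure D3:**
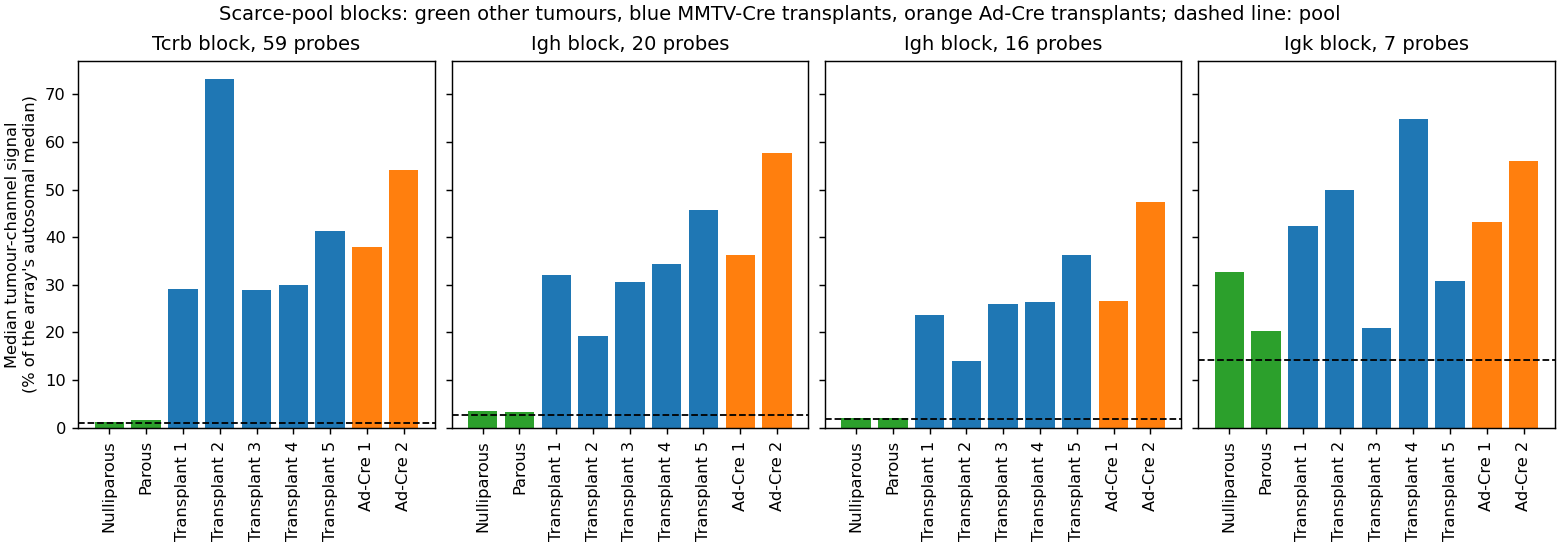
Median tumour-channel signal of 4 blocks of scarce pool signal in percent of the array's autosomal median, 1 bar per tumour, with the pool's signal as a dashed line. In the Tcrb block and both Igh blocks the 2 green bars lie at the pool's level and the 7 transplants above it, the library labelled transplant 2 is the highest at Tcrb and the lowest of the transplants at Igh, and in the Igk block the groups overlap.

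The Igh window starting at 115300001, which holds the longest Igh block, was 0.83 ± 0.60 above its surroundings (SD, n = 9, limma adjusted p = 0.0027). It was -0.10 in the nulliparous and 0.03 in the parous tumour, 0.44 in the library labelled MMTV-Cre transplant 2, 0.81 to 1.31 in the other 4 MMTV-Cre transplants, and 1.22 and 1.71 in the Ad-Cre transplants. With normexp correction the mean was -0.00 and did not pass (limma adjusted p = 0.97). The windows starting at 114900001 and 116200001 were higher by 0.22 ± 0.18 (SD, n = 9, limma adjusted p = 0.0048) and 0.21 ± 0.24 (SD, n = 9, limma adjusted p = 0.023), with the 7 transplants above 0 and the other 2 below 0 in each. The window starting at 114900001 kept its call against the surroundings under normexp correction, at 0.21 (limma adjusted p = 0.016). Its call against the pool was lost under normexp correction, at 0.13 (limma adjusted p = 0.16). It was also lost with centring on the mode, without scarce probes and without MMTV-Cre transplant 5 (limma adjusted p = 0.081, 0.054 and 0.067). At 116200001 the mean was 0.00 with normexp correction (limma adjusted p = 0.99) and -0.01 once scarce probes were left out (limma adjusted p = 0.73). Its call against the pool was lost when the library labelled MMTV-Cre transplant 2 was dropped, at 0.16 (limma adjusted p = 0.052). Dropping the parous tumour or any other single transplant lost it too, at 0.11 to 0.16 (limma adjusted p = 0.063 to 0.12). So did centring on the mode, at 0.12 (limma adjusted p = 0.14). Its call against the surroundings was lost without MMTV-Cre transplant 3 or 5 (limma adjusted p = 0.051 and 0.059).

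Igh also held the opposite pattern, windows where the transplants were low. The window starting at 116800001 had a mean of -0.50 ± 0.45 against its surroundings (SD, n = 9, limma adjusted p = 0.0090). It was -0.01 in the nulliparous and 0.15 in the parous tumour. It was -0.41, -0.50, -0.51 and -0.88 in MMTV-Cre transplants 1, 3, 4 and 5, and -0.70 and -1.34 in the Ad-Cre transplants, while the library labelled MMTV-Cre transplant 2 had -0.26. Of the transplants, Ad-Cre transplant 2 was farthest from 0 and the library labelled MMTV-Cre transplant 2 nearest to it, as at the raised Igh blocks. It kept its call under normexp correction, at -0.63 (limma adjusted p = 0.0050).

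The lowered window lay at probes where the pool was bright. From 116874551 to 117047397, 5 consecutive probes had a median pool signal of 423% of the autosomal median. The tumour signal was 404% in the nulliparous and 607% in the parous tumour and 205% to 364% in the 7 transplants. Ad-Cre transplant 2 had the lowest of these and the library labelled MMTV-Cre transplant 2, at 364%, the highest. All 5 probes had the transplants below the other 2. Lower windows also started at 116000001, with a mean of -0.35 ± 0.23 (SD, n = 9, limma adjusted p = 0.0016), and at 117000001, with -0.37 ± 0.31 (SD, n = 9, limma adjusted p = 0.0062), both with the transplants below the other 2. These windows hold 7 and 4 probes, and both turned positive when the mean of the probes replaced the median.

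Among all 77 tested windows the 7 transplants lay wholly above the other 2 tumours in 11 and wholly below in 4, where 4.73% and 5.64% of the autosomal windows did so. Igh held 6 of the former and all 4 of the latter, Tcrb 3 of the former, and Igk and Tcra/Tcrd 1 each. On the ratio minus surroundings, 0 of the 77 member windows were called between the 7 transplants and the other 2 by limma, with 20 at an unadjusted limma p under 0.05, where 16.4% of the autosomal windows reached it. That fit called 2 windows on the autosomes, or 0.00856%.

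The transplants also differed in the signal left at Trp53. It was 31.2%, 39.4%, 37.0% and 51.0% of the flanks in MMTV-Cre transplants 1, 3, 4 and 5, and 35.1% and 58.6% in the Ad-Cre transplants, while the library labelled MMTV-Cre transplant 2 kept 91.9%. At the Tcrb block the 3 transplants with the highest signal, the library labelled MMTV-Cre transplant 2, Ad-Cre transplant 2 and MMTV-Cre transplant 5, were also the 3 with the most Trp53 signal, in the same order. The remaining transplants did not keep such an order. Of these, MMTV-Cre transplant 3 had the most Trp53 signal, 39.4%, and the lowest block signal, 29.0%. Ad-Cre transplant 1 had the highest block signal of these, 38.0%, with 35.1% at Trp53. At the longest Igh block Ad-Cre transplant 2 and MMTV-Cre transplant 5 were again highest, but the library labelled MMTV-Cre transplant 2 was lowest of the transplants. The nulliparous and parous tumours, with 31.2% and 29.8%, had as little Trp53 signal as MMTV-Cre transplant 1 and block signal at the level of the pool. The share of cells that had kept Trp53 was not measured, and its part in the block signal was not tested.

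**Figure D4:**
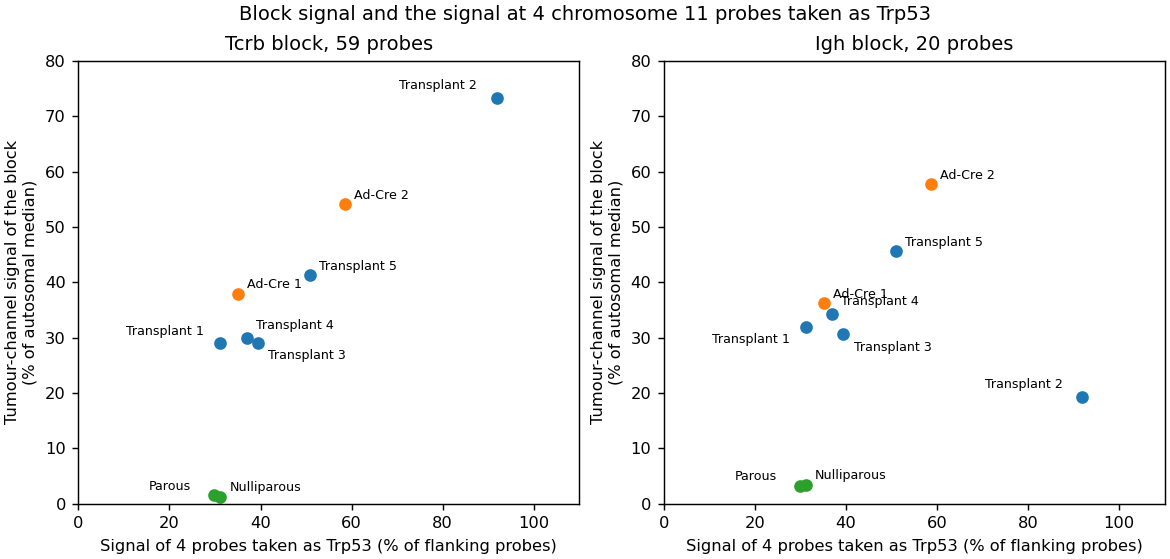
Tumour-channel signal of the Tcrb block and of the longest Igh block (percent of autosomal median) against the signal of 4 chromosome 11 probes taken as Trp53 (percent of flanking probes), 1 point per tumour, green for the nulliparous and parous tumours, blue for MMTV-Cre transplants and orange for Ad-Cre transplants. At Tcrb the library labelled transplant 2 is highest on both axes, at 73.4% and 91.9%, and at Igh it has 19.3%, below the other transplants.

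In Igk, which encodes the kappa light chain, the transplants and the other tumours overlapped in 28 of 29 tested windows. Most autosomal windows overlapped too, since the 7 transplants lay wholly above in 4.73% of them and wholly below in 5.64%. Of its 29 tested windows 16 were higher than their surroundings, spread along the locus, and 13 were higher than the pool, where the other 4 loci together had 7. The highest started at 70500001, close to the joining end, with 9 probes and a pool signal of 24% of the autosomal median. It was 0.84 in the nulliparous and 0.49 in the parous tumour. MMTV-Cre transplants 1, 3, 4 and 5 had 1.28, 0.31, 1.72 and 1.03, the library labelled MMTV-Cre transplant 2 had 1.5, and the Ad-Cre transplants 1.41 and 1.39. All 9 tumours were above their surroundings, by 1.11 ± 0.48 (SD, n = 9, limma adjusted p = 1.46e-04), and the groups overlapped. Normexp correction brought the mean to 0.08, which did not pass (limma adjusted p = 0.34).

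MMTV-Cre transplant 4 was the highest at that window, and MMTV-Cre transplant 3 and the parous tumour were the lowest. The same tumours were highest and lowest at the windows starting at 69400001, with a mean of 0.71 ± 0.42 (SD, n = 9, limma adjusted p = 9.06e-04), and 70400001, with 0.69 ± 0.34 (SD, n = 9, limma adjusted p = 2.89e-04). At a block of 7 scarce probes from 70546638 to 70627551 the pool had 14.2% of the autosomal median. There the tumour signal was 32.8% in the nulliparous and 20.3% in the parous tumour, 21% to 64.9% in the MMTV-Cre transplants, and 43.2% and 55.9% in the Ad-Cre transplants. Transplants and other tumours overlapped at this block. Of 64 scarce Igk probes, 6 had the 7 transplants above the other 2 (9.38%), where 17.4% of scarce autosomal probes did. Of the Igk probes, 0 were below background in the pool on all 9 arrays together, where 0.0944% of all autosomal probes were.

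A further Igk feature lay in a single tumour. Over the first windows of the locus, from 67400001 to 68000000, MMTV-Cre transplant 5 lay 0.28 to 0.34 above its surroundings in each of the 5 tested windows. Those windows were not called in the mean of the 9 tumours, with limma adjusted p of 0.14 or more. Lower Igk windows started at 69700001, with -0.14 ± 0.07 (SD, n = 9, limma adjusted p = 5.92e-04), and at 70300001, with -0.08 ± 0.07 (SD, n = 9, limma adjusted p = 0.010).

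Tcra/Tcrd and Igl, which encode the alpha and delta chains and the lambda light chain, were close to their surroundings in most windows. In Tcra/Tcrd the highest called window started at 54300001, with 0.14 ± 0.08 (SD, n = 9, limma adjusted p = 7.76e-04), and the lowest means were -0.14 at 53300001 and -0.13 at 54100001. In Igl the 2 called windows had means of 0.08 at 19100001 and -0.04 at 18900001. Between them, 29 probes of Tcra/Tcrd and 2 of Igl were scarce, and 2 of these 29 had all 7 transplants above the other tumours, against 17.4% of scarce autosomal probes.

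Single Tcra/Tcrd probes nevertheless differed between tumours by over 2 on the log2 scale, and here the library labelled MMTV-Cre transplant 2 did not go with the other transplants. Probe A_67_P08113859 at 53992280 had a log2 ratio of 0.13 in that library, 0.00 in the nulliparous and 0.90 in the parous tumour. It was 3.05, 3.41, 3.32 and 3.69 in MMTV-Cre transplants 1, 3, 4 and 5 and 3.04 and 3.83 in the Ad-Cre transplants. Probe A_67_P02850783 at 53003202 had -0.21 in that library, 0.05 and -0.32 in the nulliparous and parous tumours, and 1.66 to 2.87 in the other 6. At both probes 6 transplants were high and the remaining 3 tumours low. Both probes were scarce, with pool signals of 3.91% at A_67_P08113859 and 11.1% at A_67_P02850783 of the autosomal median.

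The probe ratios of pairs of tumours give the same picture as a description, since probes of 1 array share DNA and are no replicates. Over 506 Tcra/Tcrd probes, Pearson's r of the library labelled MMTV-Cre transplant 2 with the other 6 transplants was 0.34 to 0.46, and among those 6 it was 0.90 to 0.95. Over 287 Tcrb probes r was 0.96 to 0.98 among all 7 transplants and 0.20 to 0.36 between transplants and the other tumours. Over 586 Igh probes these were 0.90 to 0.98 and -0.07 to 0.37. In Igk the ranges overlapped, at 0.68 to 0.97 and 0.70 to 0.94 over 531 probes. Over all autosomal probes r was 0.61 to 0.84 among the 7 transplants and 0.38 to 0.58 between transplants and the other tumours. There too the library labelled MMTV-Cre transplant 2 stood lower, at 0.61 to 0.69 with the other 6, which had 0.77 to 0.84 among themselves.

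A run was at least 5 consecutive probes at which a running median of 5 probes lay at least 0.5 above or below the surroundings. Runs measured the same differences per tumour. They covered 0.93% of member probes in the parous tumour and 1.76% in the nulliparous tumour. In the MMTV-Cre transplants they covered 3.44% to 7.75%, with 5.23% in the library labelled MMTV-Cre transplant 2, and in the Ad-Cre transplants 6.74% and 10.7%. The mean over 9 tumours was 5.53%, and it was 0.891% once scarce probes were left out and 1.65% with normexp correction. Outside the loci the share was 0.105% to 0.543% of autosomal probes. The runs of the nulliparous tumour lay in Igk alone, and MMTV-Cre transplant 3 had 0 runs there. The longest raised Igh run covered 26 probes, from 115304961 to 115383814 in MMTV-Cre transplant 1, and the longest lowered one 23 probes, from 116840656 to 117126979 in Ad-Cre transplant 2.

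As whole regions the loci differed little from the 2 Mb on each side. Igk lay 0.07 ± 0.04 above its flanks in the median of its probes (SD, n = 9, above 0 in 9 of 9 tumours), and Igh 0.06 ± 0.05 (SD, n = 9, above 0 in 8 of 9). Tcrb lay at -0.01 ± 0.02, Tcra/Tcrd at -0.00 ± 0.02 and Igl at -0.02 ± 0.03 (SD, n = 9 for each). Leaving out the library labelled MMTV-Cre transplant 2 gave 0.07 in Igk, 0.06 in Igh, -0.01 in Tcrb, -0.00 in Tcra/Tcrd and -0.02 in Igl. The signs of Igh and Igk turned with normexp correction, to -0.01 and -0.04.

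The windows that hold the joining segments, placed by the known order of each locus, were set against the rest of it, except in Igl. The mean differences were -0.01 ± 0.08 in Igh, 0.01 ± 0.06 in Igk, -0.02 ± 0.05 in Tcrb and -0.03 ± 0.08 in Tcra/Tcrd (SD, n = 9 for each), each smaller than the spread between tumours. The parous tumour stood apart at the 2 T cell receptor loci. Its difference was -0.24 in Tcra/Tcrd, where the other 8 tumours had -0.04 to 0.04, and -0.15 in Tcrb, where they had -0.04 to 0.02. In Igh the parous tumour was at the other extreme, at 0.15. It also departed from its surroundings away from the joining ends, by 0.22 at Igh window 114800001, 0.21 at 117100001 and 0.22 at Tcra/Tcrd window 53100001. At a run threshold of 0.3 its runs covered 2.21% of autosomal probes outside the loci, against 0.31% to 1.15% in the other 8 tumours. At 0.5 its share was 0.382%, within the range of the others. The departures at these named windows were upward, while those at the joining ends of the T cell receptor loci were downward. The cause of these differences was not tested.

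The last tested windows of both T cell receptor loci carried this difference. At Tcra/Tcrd window 54800001, with 69 probes, the parous tumour had -0.22 against its surroundings and the other 8 tumours between -0.03 and 0.04. At Tcrb window 41500001, with 57 probes, it had -0.20 and the other 8 between -0.04 and 0.03. Both windows had means that were not called (limma adjusted p = 0.40 and 0.33). The parous tumour also had the only Tcra/Tcrd run of shifted probes in the 9 tumours, 7 probes from 54840916 to 54849608 with a median of -0.56.

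**Figure D5:**
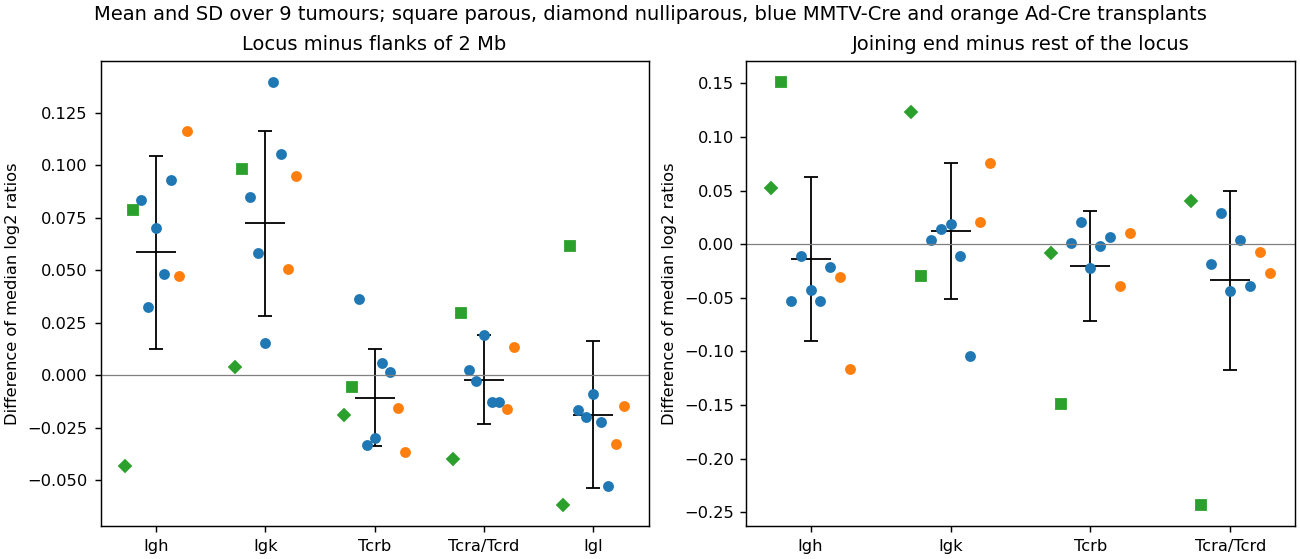
Difference of median log2 ratios between each locus and its flanks of 2 Mb (left) and between the joining end and the rest of the locus (right), 1 point per tumour, with bars for the mean and SD of 9 tumours. Igh and Igk lie above 0 in 8 and 9 of 9 tumours, and the parous tumour (square) is lowest at the joining ends of Tcrb and Tcra/Tcrd, at -0.15 and -0.24.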

How the data were processed

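Genomic DNA of 9 tumours was hybridised on 2-colour Agilent arrays. Per the file headers, signals were extracted by Feature Extraction 10.5.1.1 (Agilent). Processed signals, as deposited, are intensity values of each channel after the authors' background subtraction and dye normalisation, and the deposited raw spot and background intensity values served only the normexp alternative. The ratios of the authors are log10 of tumour (red) over pool (green), repeated in rounded form in the deposited series table.

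Processed signals gave a log2 ratio per probe, without spots not well above background in the pool or marked as outliers (1597 to 2115 per array), centred on the autosomal median and summarised as the median of 100 kb windows with at least 3 probes measured on every array. The surroundings of a window are the median of that window and the 50 tested windows on each side on its chromosome, other windows of its locus included. Means were tested with limma 3.58.1 (R 4.3.3), adjusted over 23354 windows or 912257 probes, with a threshold of 0.05. These p-values measure the spread between tumours, since no control DNA was hybridised against the pool. Tumour-channel signal was read at blocks of at least 5 consecutive probes with pool signal under 0.25 or over 3 times the autosomal median. A bound compares the brighter mean with the lowest signal well above background.

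Named windows were, in each locus, up to 3 with the highest and up to 3 with the lowest mean among those past the threshold, and those of the joining segments. Named probes had the 2 highest and 2 lowest means, of which 2 are printed, and named runs were the longest. Blocks, the comparison of 7 transplants with the other 2, the probe correlations and the windows of MMTV-Cre transplant 5 in Igk were chosen after seeing the data. The members and lists were chosen with earlier results of these data known. Alternatives were normexp (offset 50), loess, the series table, centring on the mode, other filters, window means, other surroundings and flanks, scan day as a block and each array left out. The number of arrays limits the precision.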

Additional observations from a re-analysis of the deposited data

Results flagged for a closer look

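In the 5 MMTV-Cre transplants, 2 of 45 checked values stood apart from the other 4 samples. Chance alone does so in about 1 of 20 such groups. The Tcrb block starting at 41016872 had a tumour-channel signal of 73.4% of the autosomal median in the library labelled MMTV-Cre transplant 2, against 29.0% to 41.3% in the other 4. The joining end of Igk minus the rest of the locus was -0.10 in MMTV-Cre transplant 5, against -0.01 to 0.02 in the other 4.

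The Tcrb window starting at 41000001 differed between the 7 transplants and the other 2 tumours by 2.37 (limma adjusted p = 0.024), in a comparison chosen after seeing the data. At the Igh windows starting at 114900001 and 116200001 all 7 transplants lay above their surroundings and both other tumours below, with differences of 0.31 and 0.39. Those 2 differences were not tested by this criterion, and neither window passed the adjusted threshold between these groups.

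Of the 62 member probes not well above background in the pool on any array, 57 were above it in the tumour channel of every transplant and in neither of the other 2 tumours, 33 in Tcrb and 24 in Igh. On all autosomes, members included, 318 of 863 such probes showed this. The ratios leave these probes out.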

How the results depend on the processing

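No paired analysis was possible because replicates were numbered in deposit order and no groups share tumours. Normexp correction moved the most results: higher windows fell to 5 against the pool and 12 against the surroundings, locus minus flanks became -0.0082 in Igh, -0.036 in Igk and -0.037 in Tcrb, and runs covered 1.65% of member probes. It turned the Igh window 115300001 to -0.088 against the pool and -0.0037 against its surroundings, and 116200001 to -0.0823 against the pool. Without scarce probes 12 windows were higher than the pool, runs covered 0.89%, and 116200001 was at -0.0821 against the pool and -0.012 against its surroundings. With window means 35 were higher than the pool, the Igh joining end was at -0.19, and the Igh windows 116000001 and 117000001 turned to 0.069 and 0.22 against the pool and 0.14 and 0.29 against their surroundings. Over all autosomes, window means gave 3983 windows higher than the pool, where the median gave 4333. With at least 10 probes a window, 2 of 62 tested were lower than the pool and 5 lower than the surroundings, where the autosomes gave 3356 and 5602. With scan day as a random block 9 were lower than the pool, and over all autosomes the lower windows went from 3417 to 6036. Without the filter on dim spots Tcrb lay 0.014 above its flanks and runs covered 8.90%. Flanks of 5 Mb gave 0.13 for Igk and 0.022 for Tcra/Tcrd, and a run threshold of 0.3, chosen after seeing the data, gave 9.13%. The cause of these moves was not tested.

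Between groups, the single scan day gave 5 member windows for Ad-Cre against MMTV-Cre, and the same 5 for transplants against others, from a fit that used 1 spread for all windows. The filter on dim spots, when dropped, gave 2 member windows for MMTV-Cre transplants, 3 for all transplants and 2 for all transplants minus surroundings (5, 6 and 9 on all autosomes), and window means gave 2 and 7 for the last 2 comparisons (6 and 203). All transplants against others gave 0 under normexp, centring on the mode and without scarce probes, in the loci and on all autosomes. Leaving out scarce probes removes all 59 probes of the Tcrb block, so that 0 is no second test of the block. In that setting 76 member windows were tested, and the largest difference was 0.43, at the Igk window starting at 69400001. With each array left out, member windows lower than the pool ranged from 3 to 6, those called for MMTV-Cre transplants from 0 to 1 and for all transplants from 0 to 2. The remaining 306 alternative values for counts and levels stayed within 1.5 times the count or 1 SD.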
